A study of Homo sapiens with 9 samples.

Results

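p53 is a transcription factor that accumulates after DNA damage and other stress and switches on genes that halt the cell cycle, repair DNA, kill the cell or, through the ubiquitin ligase MDM2, remove p53 again. It binds DNA as a tetramer, and its sites consist of a pair of similar decamers. HCT116, the line used here, comes from a human colon carcinoma, and HUWE1, a HECT-type ubiquitin ligase, has p53 among its known substrates. The messenger RNA of 41 reported p53 target genes was followed in parental HCT116 cells and in HCT116 cells with edited HUWE1. The genes were taken by symbol from a list that was drawn up with earlier results of these data known, and all 41 were among the 11350 genes of the counts table.

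The study compared 3 lines with 3 libraries each, all untreated. HUWE1-P cells are the parental line. In HUWE1-CS cells the catalytic cysteine codon of the endogenous HUWE1 gene was replaced by a serine codon by CRISPR, and in HUWE1-WT cells, the control of the editing, the same codon was replaced by a cysteine codon. Both edited lines carry a blasticidin resistance gene from the repair template, went through antibiotic selection and were grown from single cell clones. Whether the 3 replicates of an edited line are 1 clone or several is not given in the sources used here, so genotype and clone cannot be told apart. The 9 libraries of polyadenylated RNA held between 1610984 and 2060349 counted reads, and 3 counts corresponded to between 1.45 and 1.86 CPM, a count scaled to library size by the TMM method. The p53 target genes were well above this, with between 16 and 2749 counts each in every library. HUWE1 itself was at 561, 545 and 522 CPM in HUWE1-P, 498, 453 and 455 CPM in HUWE1-WT and 345, 323 and 339 CPM in HUWE1-CS libraries. Gene counts do not show which codon a line carries, so these values do not check the labels. The repair template also held the resistance gene, and its part in the counts of HUWE1 was not tested. Of 8 epithelial markers 7 were in the table, at mean levels in HUWE1-P cells from 65.6 CPM (CDH1) to 2055 CPM (KRT8), and of 9 markers of blood, stroma and other tissues COL1A1 and ACTA2 were in the table, at 22.2 and 1.97 CPM. In HUWE1-CS against HUWE1-P cells COL1A1 had a log2 fold change of -0.96 (FDR 0.000901) and ACTA2 of 2.01 (FDR 0.000384) by edgeR; their part in the results was not tested.

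Most of the p53 target genes were higher in HUWE1-CS cells than in either control line. Against HUWE1-P cells 26 of 41 rose and 1, KITLG, fell, at a false discovery rate (FDR) of at most 0.01 in edgeR's quasi-likelihood test with Benjamini-Hochberg adjustment over all 11350 genes. Against HUWE1-WT cells 23 rose and KITLG fell. The share of all genes called was 17.0% in the former comparison (8.46% higher, 8.58% lower) and 15.5% in the latter (7.42% higher, 8.08% lower), and the share of the 41 genes was 65.9% and 58.5%. The median log2 fold change of the 41 genes was 0.55 against HUWE1-P and 0.46 against HUWE1-WT cells, beside medians of -0.0072 and -0.00059 over all genes. Between the control lines, HUWE1-WT against HUWE1-P, 0 of 41 passed, beside 0.0617% of all genes (0.00881% higher, 0.0529% lower), and the median was 0.07. The HUWE1-CS libraries enter both comparisons with the control lines, so that these do not count as separate evidence. In a bulk library, more RNA per cell and more cells that express a gene cannot be told apart.

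Without any test, the 3 HUWE1-CS libraries lay above all 6 control libraries for 28 of the 41 genes and below all 6 for 3 genes, KITLG, SUSD6 and APAF1; over all genes the shares were 12.9% and 13.4%. Summed over the 41 genes, the level was between 3955 and 4077 CPM in HUWE1-P, between 4086 and 4129 CPM in HUWE1-WT and between 5372 and 5427 CPM in HUWE1-CS libraries. KITLG alone made up between 29.8% and 32.5% of this sum in the control libraries and between 13.8% and 16% in HUWE1-CS libraries. Without KITLG the sum was between 2685 and 2869 CPM in the controls and between 4557 and 4632 CPM in HUWE1-CS libraries, with no overlap.

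**Figure D1:**
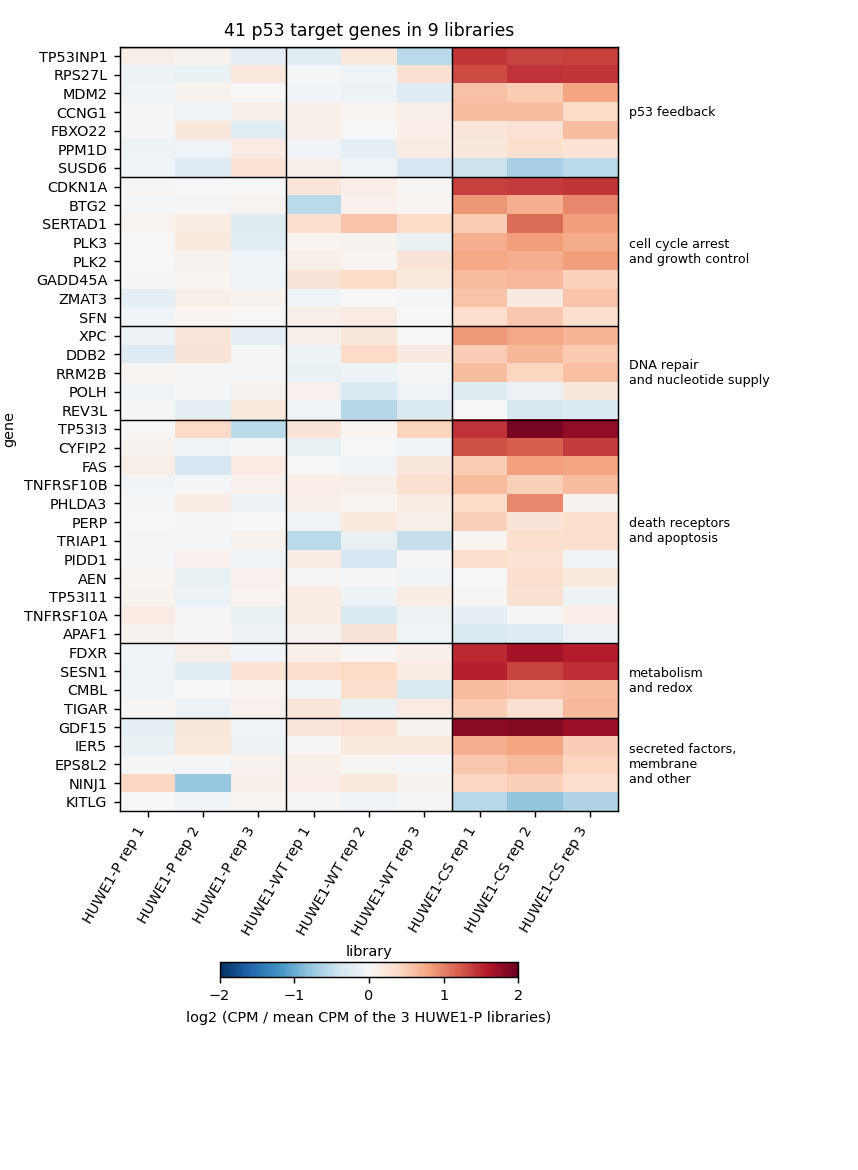
Heat map of the 41 p53 target genes (rows, grouped by role) in the 9 libraries (columns); colour gives the log2 ratio of the library's CPM to the mean of the 3 HUWE1-P libraries, red for higher and blue for lower. The 3 HUWE1-CS columns are red for most genes and darkest for GDF15, TP53I3 and FDXR, KITLG and SUSD6 are blue there, and the HUWE1-WT columns stay pale.

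The p53 consensus element, a pair of decamers with a spacer of 0 to 13 bases, was searched on both strands within 5000 bases of the start of each gene's canonical transcript on GRCh37, the build of the authors' alignment (hg19). A full match was found near 5 of the 41 genes, and all 5 are shown. The spacer was 0 bases in PLK2 and ZMAT3, 1 in DDB2, 2 in TIGAR and 13 in FBXO22. With no spacer allowed, TIGAR and FBXO22 had 3 mismatches at best. CCNG1, RRM2B, PERP and GADD45A, whose sites are not shown, held a site with no spacer and 1 mismatch. Sequences run 5′ to 3′ on the gene's strand, with the decamers in capitals and the spacer in lower case. Distances are from the middle of a site to the start. The site of PLK2 lies at chr5:57758101-57758120 (minus strand), 2198 bases upstream of the start. That of DDB2, at chr11:47236530-47236550 (plus strand), is centred 15 bases downstream of the start in an untranslated exon. Those of TIGAR at chr12:4430781-4430802 (plus strand), ZMAT3 at chr3:178787976-178787995 (minus strand) and FBXO22 at chr15:76196469-76196501 (plus strand) lie in intron 1 of their genes.
PLK2: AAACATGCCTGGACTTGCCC
DDB2: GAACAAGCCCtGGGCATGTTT
TIGAR: AGACATGTCCacAGACTTGTCT
ZMAT3: AAACAAGTCCAGACATGCCT
FBXO22: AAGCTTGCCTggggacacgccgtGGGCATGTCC

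For GDF15, CDKN1A, MDM2 and TP53I3, the nearest form of the element, with no spacer and 2 of its 20 bases mismatched, is shown with matching bases in capitals and mismatched bases in lower case. These are the 4 genes with the smallest p-values against HUWE1-P cells among those that hold such a site and no full match, and were picked after the expression values were known. FDXR, RPS27L, CYFIP2 and KITLG, which lie between CDKN1A and MDM2 in the order of p-values, hold none, with 3 mismatches at best. GDF15 holds such a site 840 bases upstream of the start, at chr19:18496118-18496137 (plus strand), and TP53I3 at chr2:24309651-24309670 (minus strand), 1956 bases upstream. CDKN1A has a pair upstream of its start, at chr6:36644226-36644245 and chr6:36645108-36645127 (plus strand). Starts are those of canonical transcripts, and the gene spans given below for GDF15 and CDKN1A begin further upstream. MDM2 has a pair inside the gene, at chr12:69202703-69202722 in intron 1 and chr12:69204975-69204994 in intron 2 (plus strand).
GDF15: cAtCTTGCCCAGACTTGTCT
TP53I3: AtACATcCTCAGACATGTTT
CDKN1A chr6:36644226-36644245: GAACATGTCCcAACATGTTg
CDKN1A chr6:36645108-36645127: GAAgAAGaCTGGGCATGTCT
MDM2 chr12:69202703-69202722: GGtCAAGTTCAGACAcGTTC
MDM2 chr12:69204975-69204994: GGACTTGCCTAGtCTTaTCT

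Elements were more frequent near the 41 genes than near other genes of the table. A full match was present for 12.2% of them and for 1.2% of the 11114 genes with coordinates, and within 1000 bases of the start for 7.32% and 0.18%. A site with no spacer and at most 2 mismatches was present for 19 of 41 (46.3%) and for 22.6% of all genes. Of the 26 genes that rose against HUWE1-P cells 17 had such a site (65.4%), and of the other 15 genes 2 (13.3%). Full matches were not divided that way, with 2 of 26 (PLK2, DDB2) and 3 of 15 (TIGAR, ZMAT3, FBXO22). This division of the list uses the expression result itself, has no share among all genes that rose beside it, and was not tested. Known binding is among the reasons for which genes are listed as p53 targets, so the frequencies describe the list and were not tested, and a match to letters does not show that p53 is bound there.

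**Figure D2:**
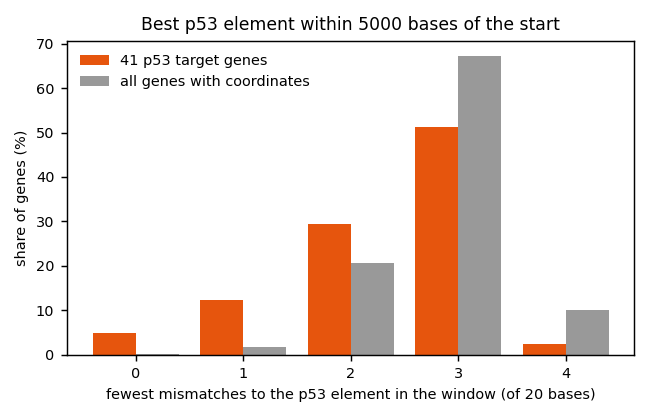
Bar chart of the fewest mismatches to the p53 element (no spacer, of 20 bases) found within 5000 bases of the start, as the share of genes in percent, for the 41 p53 target genes and for the 11114 genes with coordinates. Of the 41 genes 2 had 0, 5 had 1 and 12 had 2 mismatches, and the bars at 0 to 2 mismatches are higher for the 41 genes, those at 3 and 4 lower.

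Of the 7 genes grouped in the list under p53 feedback, 4 rose in HUWE1-CS cells against each control line. TP53INP1, a cofactor of kinases that phosphorylate p53, was at 17.4, 16.8 and 14 CPM in HUWE1-P, 13.9, 18.5 and 11 CPM in HUWE1-WT and 43.3, 40.8 and 41.2 CPM in HUWE1-CS libraries. Every HUWE1-CS library was above every control library by a wide gap, with a log2 fold change of 1.39 (SE 0.19, FDR 1.92e-09) against HUWE1-P and 1.51 (SE 0.19, FDR 2.91e-10) against HUWE1-WT cells. RPS27L, a ribosomal protein paralog that binds MDM2, was at 51.5, 50.5 and 64.1 CPM in HUWE1-P, 54.5, 52.9 and 68.6 CPM in HUWE1-WT and 137, 151 and 149 CPM in HUWE1-CS libraries. The groups did not overlap, and the log2 fold changes were 1.38 (SE 0.11, FDR 4.82e-20) and 1.32 (SE 0.11, FDR 8.95e-19); reads may be shared with its close relative RPS27. MDM2, the ligase that degrades p53, whose sites are shown above, was at 200.5, 222 and 212 CPM in HUWE1-P, 204, 196 and 177 CPM in HUWE1-WT and 316, 299 and 365 CPM in HUWE1-CS libraries. Its HUWE1-CS libraries lay above every control library, with log2 fold changes of 0.63 (SE 0.073, FDR 1.78e-11) and 0.76 (SE 0.075, FDR 9.95e-15). CCNG1, cyclin G1, which directs a phosphatase to MDM2, was at 123, 119.5 and 134 CPM in HUWE1-P, 134, 130.3 and 135 CPM in HUWE1-WT and 192, 192 and 166 CPM in HUWE1-CS libraries, and rose by 0.54 and 0.46 on the log2 scale (FDR 1.83e-07 and 8.96e-06).

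The other members of the feedback group did not pass the test. FBXO22, an F-box protein, had log2 fold changes of 0.40 (FDR 0.0302) and 0.32 (FDR 0.0986), and PPM1D, the phosphatase WIP1, which removes damage-induced phosphates from p53, had 0.27 (FDR 0.129) and 0.31 (FDR 0.0854). In both genes all HUWE1-CS libraries were still above all control libraries. SUSD6, a transmembrane protein, was at 16.1, 14 and 20.2 CPM in HUWE1-P, 18, 15.8 and 13.4 CPM in HUWE1-WT and 12.5, 10.8 and 11.6 CPM in HUWE1-CS libraries. It was the only gene of the group with HUWE1-CS libraries below all controls, at a log2 fold change of -0.55 (95% interval -1.04 to -0.05, FDR 0.0958) against HUWE1-P cells.

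Among 8 genes of cell cycle arrest and growth control, 7 rose against HUWE1-P and 5 against HUWE1-WT cells. CDKN1A (Entrez 1026, chr6:36644237-36655114, plus strand), which encodes p21, the inhibitor of cyclin-dependent kinases, was at 159, 155 and 156 CPM in HUWE1-P, 185, 172 and 159.9 CPM in HUWE1-WT and 405, 412 and 421 CPM in HUWE1-CS libraries. HUWE1-CS libraries stood far from a tight group of controls, with log2 fold changes of 1.40 (SE 0.072, FDR 7.87e-32) and 1.26 (SE 0.071, FDR 5.97e-29). BTG2, an antiproliferative partner of the deadenylase complex, was at 27.3, 26.9 and 28.9 CPM in HUWE1-P, 19.1, 29.4 and 28.5 CPM in HUWE1-WT and 51, 45.9 and 54 CPM in HUWE1-CS libraries, with log2 fold changes of 0.85 and 0.96 (FDR 7.07e-06 and 9.56e-07). Both polo-like kinases of the list rose. PLK2 was at 70.8, 74.1 and 67.9 CPM in HUWE1-P, 77.1, 73.6 and 84.9 CPM in HUWE1-WT and 121, 117 and 126 CPM in HUWE1-CS libraries, with log2 fold changes of 0.78 and 0.63 (FDR 1.42e-09 and 4.84e-07). PLK3 was at 39.7, 46 and 34.2 CPM in HUWE1-P, 41.7, 42 and 36.6 CPM in HUWE1-WT and 66.5, 71.5 and 66.8 CPM in HUWE1-CS libraries, with 0.78 and 0.76 (FDR 1.68e-06 and 3.32e-06). In both kinases no HUWE1-CS library overlapped a control. SFN, the protein 14-3-3 sigma, which holds mitotic kinase in the cytoplasm, rose less, by 0.41 and 0.31 on the log2 scale (FDR 1.42e-05 and 0.000892), from a mean of 177 ± 5.65 CPM (SD, n = 3) in HUWE1-P to 235 ± 18.9 CPM in HUWE1-CS cells. Without HUWE1-WT replicate 3 or HUWE1-CS replicate 2 its FDR against HUWE1-WT cells was 0.0166 or 0.0171. With all libraries and a correction for transcript length and GC content it was 0.0237.

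GADD45A and SERTAD1 had a mean level in HUWE1-WT cells between those of the other lines. Neither the step from HUWE1-P to HUWE1-WT nor that from HUWE1-WT to HUWE1-CS cells passed the test. GADD45A, a stress protein that restrains the mitotic kinase, was at 39.7, 41 and 37.1 CPM in HUWE1-P, 46.9, 50.7 and 44.8 CPM in HUWE1-WT and 61.1, 61.8 and 54 CPM in HUWE1-CS libraries. No group overlapped another, and the log2 fold change was 0.59 (FDR 0.000405) against HUWE1-P and 0.31 (FDR 0.0738) against HUWE1-WT cells. SERTAD1, a coregulator of E2F transcription factors, was at 24.8, 26.4 and 20.2 CPM in HUWE1-P, 30.1, 35.4 and 30.8 CPM in HUWE1-WT and 33.8, 51.6 and 42.4 CPM in HUWE1-CS libraries. Its lowest HUWE1-CS library lay within the HUWE1-WT range, and the log2 fold changes were 0.85 (FDR 3.71e-05) and 0.41 (FDR 0.0507). HUWE1-WT against HUWE1-P gave 0.28 (FDR 0.901) for GADD45A and 0.45 (FDR 0.756) for SERTAD1, neither called. ZMAT3, an RNA-binding zinc finger protein, missed the limit in both comparisons, at 0.44 (FDR 0.0169) and 0.48 (FDR 0.011), with all HUWE1-CS libraries above all controls, and passed without HUWE1-CS replicate 2 (FDR 0.00371 and 0.00238).

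**Figure D3:**
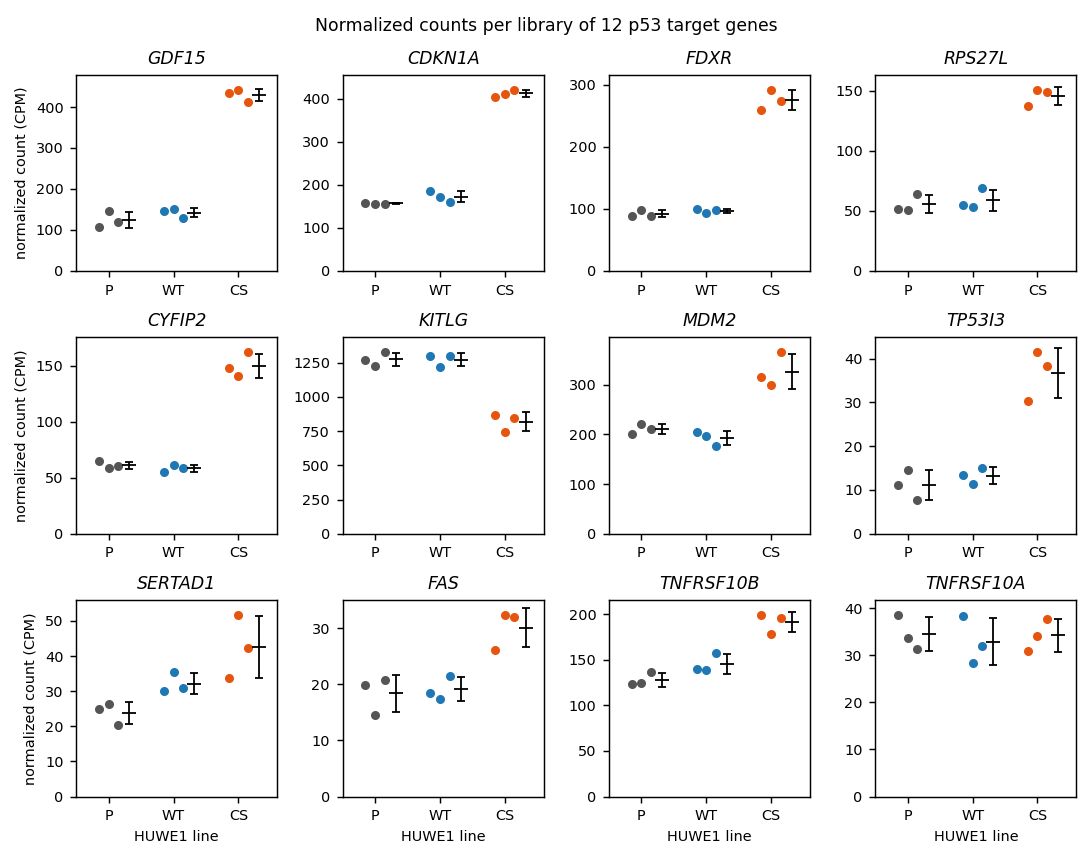
Normalized counts (CPM, linear axis from 0) of 12 p53 target genes in the 3 libraries of each line (P, WT and CS stand for the 3 HUWE1 lines); points are libraries, and the black bars are the mean ± SD of 3 libraries. The HUWE1-CS points lie clear of both control groups for 10 genes (9 above, KITLG below), overlap HUWE1-WT for SERTAD1 and overlap both for TNFRSF10A.

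Of 5 genes of DNA repair and nucleotide supply, 3 rose against HUWE1-P and 2 against HUWE1-WT cells. XPC, which finds distorted DNA in nucleotide excision repair, was at 47.2, 60.1 and 44.3 CPM in HUWE1-P, 54.5, 58.9 and 50.6 CPM in HUWE1-WT and 92.6, 86.2 and 80.7 CPM in HUWE1-CS libraries, and rose by 0.78 and 0.66 on the log2 scale (FDR 1.89e-07 and 8.38e-06). RRM2B, the p53-inducible small subunit of ribonucleotide reductase, was at 111, 106 and 104 CPM in HUWE1-P, 97.3, 99.8 and 103 CPM in HUWE1-WT and 163, 143 and 161 CPM in HUWE1-CS libraries, with log2 fold changes of 0.55 and 0.64 (FDR 6.04e-07 and 2.05e-08). For both genes the HUWE1-CS libraries were above all controls. DDB2, the subunit that recognises ultraviolet damage, was at 37.2, 53.3 and 43.4 CPM in HUWE1-P, 41.7, 58.9 and 50.6 CPM in HUWE1-WT and 62.9, 70.9 and 64.4 CPM in HUWE1-CS libraries, with log2 fold changes of 0.56 (FDR 0.000653) and 0.39 (FDR 0.0219), and its gap to the highest control library was small. Without HUWE1-P replicate 1, the FDR of DDB2 against HUWE1-P cells was 0.016, and without HUWE1-WT replicate 2 DDB2 passed against HUWE1-WT cells (FDR 0.00567). In DESeq2 with all libraries DDB2 did not pass against HUWE1-P cells (FDR 0.0122).

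The polymerases that copy past damaged bases did not pass the test. POLH, polymerase eta, had a log2 fold change against HUWE1-P cells of -0.04 (95% interval -0.32 to 0.25), and REV3L, the catalytic subunit of polymerase zeta, of -0.22 (95% interval -0.51 to 0.08). In both the HUWE1-CS libraries overlapped the controls.

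The 12 genes of death receptors and apoptosis were mixed, with 6 that rose against each control line. TP53I3, a quinone oxidoreductase also known as PIG3, was at 11.2, 14.6 and 7.71 CPM in HUWE1-P, 13.3, 11.5 and 15.1 CPM in HUWE1-WT and 30.3, 41.4 and 38.3 CPM in HUWE1-CS libraries. The lowest HUWE1-CS library was above the highest control, with log2 fold changes of 1.73 (SE 0.21, FDR 1.09e-10) and 1.46 (SE 0.21, FDR 1.11e-08). CYFIP2, a subunit of the actin-regulating WAVE complex, was at 64.6, 58.9 and 60.2 CPM in HUWE1-P, 55, 61.6 and 58.7 CPM in HUWE1-WT and 148, 141 and 162 CPM in HUWE1-CS libraries. Its log2 fold changes were 1.30 (SE 0.10, FDR 1.13e-19) and 1.36 (SE 0.10, FDR 2.39e-20), with no overlap between HUWE1-CS and control libraries.

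Among the death receptors, TNFRSF10B and FAS were called in both comparisons and TNFRSF10A in neither. TNFRSF10B, receptor DR5 for the death ligand TRAIL, was at 123, 125 and 136 CPM in HUWE1-P, 139.6, 139 and 158 CPM in HUWE1-WT and 199, 179 and 196 CPM in HUWE1-CS libraries, and rose by 0.57 (FDR 3.4e-08) and 0.40 (FDR 0.000102) on the log2 scale. TNFRSF10A, the related receptor DR4, was at 38.5, 33.7 and 31.3 CPM in HUWE1-P, 38.2, 28.4 and 32 CPM in HUWE1-WT and 30.9, 34 and 37.7 CPM in HUWE1-CS libraries. Its groups overlapped throughout. The 95% interval of its log2 fold change relative to HUWE1-P cells was -0.32 to 0.32, and that of TNFRSF10B was 0.41 to 0.74. Against HUWE1-WT cells these intervals were -0.26 to 0.39 and 0.23 to 0.56, which overlap. The receptors were not tested against each other, and reads from stretches common to the pair may have been split in counting. FAS, the receptor for FAS ligand, was at 19.9, 14.6 and 20.7 CPM in HUWE1-P, 18.5, 17.5 and 21.5 CPM in HUWE1-WT and 26.1, 32.3 and 31.9 CPM in HUWE1-CS libraries, with log2 fold changes of 0.71 (FDR 0.00313) and 0.65 (FDR 0.00702). Without HUWE1-P replicate 2 its FDR against HUWE1-P cells was 0.0392, and without HUWE1-CS replicate 2 or 3 it was 0.0189 or 0.0159. With all libraries in DESeq2 it was 0.0356. Against HUWE1-WT cells the call of FAS was also lost without HUWE1-WT replicate 1 or 2 (FDR 0.0259 and 0.0376) and without HUWE1-CS replicate 2 or 3 (FDR 0.0341 and 0.0302). With all libraries it was lost there in DESeq2 (FDR 0.0618) and with total counts (FDR 0.0101). ACTA2, smooth muscle actin, shares 683 bases with FAS on the opposite strand and was at 0.621, 3.37 and 1.93 CPM in HUWE1-P, 4.64, 5.45 and 4.07 CPM in HUWE1-WT and 8.9, 8.51 and 7.55 CPM in HUWE1-CS libraries. Its part in the FAS counts was not tested, since the use of strand in counting is not given in the sources used here.

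PERP, a membrane protein of desmosomes, rose by 0.35 (FDR 0.000123) and 0.27 (FDR 0.00363) on the log2 scale, the smallest rise called on the list. Without HUWE1-WT replicate 1 or 3, or HUWE1-CS replicate 1, its FDR against HUWE1-WT cells was 0.06, 0.0118 or 0.0639. In DESeq2 with all libraries it was 0.0244. PHLDA3, an inhibitor of AKT at the membrane, was at 30.4, 34.8 and 28.9 CPM in HUWE1-P, 34.2, 32.2 and 34.9 CPM in HUWE1-WT and 40.9, 61.2 and 33.1 CPM in HUWE1-CS libraries. Its call against HUWE1-P cells (log2 fold change 0.53, FDR 0.00916) was lost without HUWE1-CS replicate 2, where the log2 fold change was 0.25 and the FDR 0.344. The call was lost as well without HUWE1-P replicate 1 or 3 or HUWE1-CS replicate 1 (FDR 0.0339, 0.0607 and 0.0104). With all libraries it was lost in DESeq2 (FDR 0.081), limma-voom (FDR 0.0224) and with total counts (FDR 0.0141). A minimum of 10 counts in every library gave an FDR of 0.0104. TRIAP1, an inhibitor of apoptosis in mitochondria, was at 56.5, 56.7 and 61.2 CPM in HUWE1-P, 40, 52.4 and 42.4 CPM in HUWE1-WT and 59.9, 72.6 and 72.6 CPM in HUWE1-CS libraries. It rose against HUWE1-WT cells only (log2 fold change 0.60, FDR 0.000194; against HUWE1-P 0.23, FDR 0.167), with the HUWE1-WT libraries below all HUWE1-P libraries (-0.37, FDR 0.696).

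The remaining genes of cell death did not pass in either comparison. Their log2 fold changes against HUWE1-P cells were 0.18 for AEN, an apoptosis-enhancing nuclease, 0.20 for PIDD1, a scaffold for caspase activation, 0.09 for TP53I11 and -0.21 for APAF1, the core of the apoptosome. APAF1 was at 27.9, 26.9 and 24.6 CPM in HUWE1-P, 27.8, 31.6 and 25 CPM in HUWE1-WT and 22, 22.1 and 24.4 CPM in HUWE1-CS libraries, with HUWE1-CS libraries below all controls by a small margin (FDR 0.45 and 0.235).

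Of the 4 genes of metabolism and redox control, 3 rose against each control line. FDXR (Entrez 2232, chr17:72858619-72869156, minus strand), the mitochondrial ferredoxin reductase, was at 88.8, 98.8 and 89.1 CPM in HUWE1-P, 99.1, 93.3 and 98.8 CPM in HUWE1-WT and 259.9, 292 and 273 CPM in HUWE1-CS libraries. The control libraries spanned a narrow range, and the log2 fold changes were 1.58 (SE 0.084, FDR 8.1e-31) and 1.50 (SE 0.084, FDR 1.77e-29). SESN1, a sestrin that restrains mTOR signalling, was at 12.4, 11.2 and 15.9 CPM in HUWE1-P, 16.8, 17.5 and 14.5 CPM in HUWE1-WT and 38.6, 33.5 and 36.6 CPM in HUWE1-CS libraries, with log2 fold changes of 1.43 (SE 0.20, FDR 5.66e-09) and 1.15 (SE 0.19, FDR 1.08e-06). CMBL, a cytosolic hydrolase, was at 91.2, 94.9 and 97.8 CPM in HUWE1-P, 89.2, 118 and 77.3 CPM in HUWE1-WT and 146, 141 and 145 CPM in HUWE1-CS libraries. Its HUWE1-CS libraries lay together above a wider HUWE1-WT group, with log2 fold changes of 0.60 and 0.60 (FDR 6.41e-07 and 1.03e-06). TIGAR, which lowers glycolytic flux, missed the limit, at 0.49 (FDR 0.0117) and 0.40 (FDR 0.0473), with all HUWE1-CS libraries above all controls, and passed against HUWE1-P cells without HUWE1-WT replicate 2 or HUWE1-CS replicate 2 (FDR 0.00936 and 0.00605).

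The last group, secreted factors, membrane proteins and others, held both ends of the list. GDF15 (Entrez 9518, chr19:18485541-18499986, plus strand), a secreted stress cytokine of the TGF-beta family, was at 108, 145 and 119 CPM in HUWE1-P, 147, 151 and 129.7 CPM in HUWE1-WT and 434, 442 and 413 CPM in HUWE1-CS libraries. HUWE1-CS libraries were at a multiple of every control library, and the log2 fold changes of 1.79 (SE 0.078, FDR 3.74e-37) and 1.59 (SE 0.076, FDR 5.59e-34) were the highest of the 41 genes in both comparisons. KITLG (Entrez 4254, chr12:88886570-88974628, minus strand), stem cell factor, the ligand of the receptor KIT, was at 1271, 1227 and 1324 CPM in HUWE1-P, 1300, 1217 and 1295 CPM in HUWE1-WT and 871, 740.1 and 842 CPM in HUWE1-CS libraries. It was the only gene of the list that fell, with log2 fold changes of -0.64 (SE 0.058, FDR 1.5e-16) and -0.64 (SE 0.058, FDR 2.74e-16), and its control lines were close to each other. IER5, an immediate early gene product, was at 79.4, 102 and 81.9 CPM in HUWE1-P, 88.7, 101 and 100.01 CPM in HUWE1-WT and 145, 151 and 123 CPM in HUWE1-CS libraries, and rose by 0.68 and 0.54 on the log2 scale (FDR 3.64e-08 and 8.78e-06). EPS8L2, an actin-linked adaptor, was at 119.8, 119 and 128 CPM in HUWE1-P, 132, 124 and 121 CPM in HUWE1-WT and 178, 191 and 165 CPM in HUWE1-CS libraries, and rose by 0.54 and 0.50 (FDR 2.77e-07 and 1.68e-06). NINJ1, which ruptures the membrane of dying cells, was at 42.8, 19.1 and 34.7 CPM in HUWE1-P, 35.3, 37.1 and 33.7 CPM in HUWE1-WT and 42.7, 44.8 and 41.2 CPM in HUWE1-CS libraries. HUWE1-P replicate 2 stood apart at the low end, and the difference from HUWE1-P cells did not pass (log2 fold change 0.42, FDR 0.0459). Without HUWE1-P replicate 2 the log2 fold change was 0.16 (FDR 0.53), and without HUWE1-P replicate 1 it was 0.65 and passed (FDR 0.00648).

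Some of these genes share bases with another gene on hg19. RPS27L overlaps LACTB and TP53INP1 overlaps NDUFAF6 on the opposite strand, and the partners had log2 fold changes against HUWE1-P cells of -0.03 (FDR 0.954) and 0.0057 (FDR 0.99). EPS8L2 overlaps TMEM80 on the same strand over 9438 bases (TMEM80 0.48, FDR 0.234) and DEAF1 on the opposite strand (0.25, FDR 0.258). TP53I11 lies opposite to TSPAN18 over 46521 bases, and TSPAN18 rose by 0.75 (FDR 0.00328). The part of these partners in the counts was not tested.

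**Figure D4:**
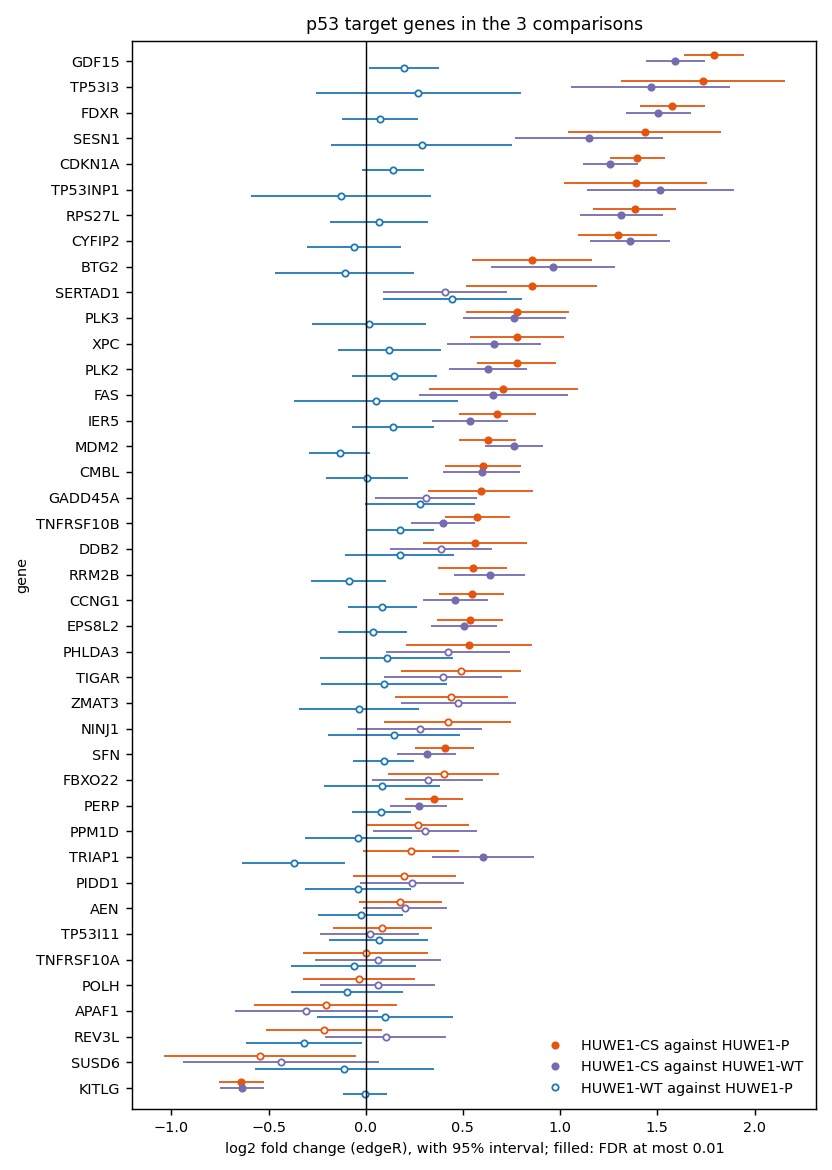
Log2 fold change (x axis, edgeR) with its 95% interval for each of the 41 p53 target genes (y axis, ordered by HUWE1-CS against HUWE1-P), in the 3 comparisons; filled points have an FDR of at most 0.01. HUWE1-CS against HUWE1-P ranges from -0.64 (KITLG) to 1.79 (GDF15), and every point of HUWE1-WT against HUWE1-P is open.

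Set against a size limit, 8 of the 41 genes were called with a log2 fold change of at least 1 against HUWE1-P cells (GDF15, TP53I3, FDXR, SESN1, CDKN1A, TP53INP1, RPS27L and CYFIP2), beside 0.731% of all genes. By role, the median against HUWE1-P cells was, on the log2 scale, 1.02 for metabolism and redox, 0.78 for cell cycle arrest and growth control, 0.55 for DNA repair and nucleotide supply, 0.54 each for p53 feedback and for secreted and other factors, and 0.29 for death receptors and apoptosis; the roles were not tested against each other. Across the 41 genes, which share the same libraries, the log2 fold change against HUWE1-P cells and the level in HUWE1-WT cells, in CPM per kilobase of transcript, had a Spearman correlation of 0.066. Per kilobase, the highest levels in HUWE1-P cells were those of KITLG (234), SFN (136) and GDF15 (103) and the lowest those of SESN1 (2.33) and TP53INP1 (2.87).

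The control lines themselves were close. HUWE1-WT against HUWE1-P called 0 of 41 genes in edgeR's test at an FDR of at most 0.01, and 0 in DESeq2 and limma-voom. At an unadjusted p under 0.05 there were 5 (GDF15, TNFRSF10B, SERTAD1, TRIAP1 and REV3L, 12.2%), beside 5.54% of all genes. All 3 HUWE1-WT libraries were above all 3 HUWE1-P libraries for CDKN1A, GADD45A, SERTAD1 and TNFRSF10B and below for RRM2B and TRIAP1, beside 5.40% and 5.31% of all genes. For CDKN1A this difference was 0.14 on the log2 scale (95% interval -0.02 to 0.30) and for GDF15 0.20 (95% interval 0.02 to 0.38). The difference between the 2 log2 fold changes of a gene in HUWE1-CS cells equals its log2 fold change of HUWE1-WT against HUWE1-P, so for the 5 genes called against a single control line (SERTAD1, GADD45A, DDB2 and PHLDA3 against HUWE1-P, TRIAP1 against HUWE1-WT) the comparisons were not shown to differ.

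Genes of a second list of 40 reported p53 targets, of which 30 were in the table, rose as well. Against HUWE1-P cells 10 rose (8.46% of all genes) and 0 fell (8.58%), with a median log2 fold change of 0.34, and against HUWE1-WT cells 7 rose and 0 fell, with a median of 0.32. BAX, the pore-forming protein of the mitochondrial death pathway, was at 46.6, 57.8 and 50.6 CPM in HUWE1-P, 55, 62.7 and 60.5 CPM in HUWE1-WT and 109.8, 104 and 93.5 CPM in HUWE1-CS libraries, with log2 fold changes of 0.99 (FDR 1.81e-11) and 0.78 (FDR 2.21e-08). BBC3, the BH3-only protein PUMA, was at 18.6, 14.6 and 12 CPM in HUWE1-P, 18, 17.5 and 11.6 CPM in HUWE1-WT and 33.2, 30.1 and 31.4 CPM in HUWE1-CS libraries, with 1.08 (FDR 1.23e-05) and 1.00 (FDR 5.7e-05). Others that rose against HUWE1-P cells were SESN2 (0.67), FUCA1 (0.69), CCDC90B (0.76), PTP4A1 (0.50), TMEM68 (0.71), TP53I13 (0.69) and PCNA (0.24), of which SESN2, CCDC90B and PCNA did not pass against HUWE1-WT cells. The call of PCNA against HUWE1-P cells held in 12 of 20 alternatives and that of SESN2 in 15.

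Of 25 genes that regulate p53, 3 rose and 3 fell against HUWE1-P cells (median -0.13), beside 17.0% of all genes called. RPL5 and RPL11, ribosomal proteins that can bind MDM2, were among those that rose, by 0.30 and 0.46 on the log2 scale (FDR 1.23e-05 and 1.75e-09). The kinase HIPK2 had a log2 fold change of -0.73 (FDR 2.82e-08), the acetyltransferase CREBBP of -0.40 (FDR 0.00234) and the deubiquitinase USP7, which stabilises MDM2, of -0.26 (FDR 0.00402). HIPK2 passed in all 20 alternatives at the same threshold, CREBBP and USP7 in 14 of 20 each, with FDR up to 0.0708 and 0.0711. Without HUWE1-P replicate 3 or HUWE1-CS replicate 2, with DESeq2 or with a correction for transcript length and GC content, HIPK2 alone of the regulators fell. Against HUWE1-WT cells 4 rose and 2 fell, CREBBP no longer passing and DAXX added among those that rose (0.30, FDR 0.00954), a call that held in 10 of 20 alternatives. With DESeq2 and without HUWE1-CS replicate 2, 0 regulators fell against HUWE1-WT cells. MDM4, the partner of MDM2, was at 74.5 ± 7.74, 72.2 ± 7.79 and 59 ± 4.44 CPM in the parental, HUWE1-WT and HUWE1-CS lines (SD, n = 3), a log2 fold change of -0.33 that missed the limit (FDR 0.0326).

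Downstream of p21, p53 lowers cell cycle genes through the DREAM complex. Of 14 such genes 0 rose and 1 fell against HUWE1-P cells (median -0.13), and 3 fell against HUWE1-WT cells (median -0.08), beside 8.58% and 8.08% of all genes. MKI67, the proliferation marker Ki-67, was at 708, 693 and 628 CPM in HUWE1-P, 624, 562 and 584 CPM in HUWE1-WT and 376, 363 and 463 CPM in HUWE1-CS libraries, and had log2 fold changes of -0.75 (FDR 6.11e-17) and -0.56 (FDR 7.42e-11). PLK1 and CENPA fell against HUWE1-WT cells, with log2 fold changes of -0.27 (FDR 0.0048) and -0.78 (FDR 0.00164), and were at -0.23 (FDR 0.0185) and -0.63 (FDR 0.0131) against HUWE1-P cells. Without any test, the HUWE1-CS libraries lay below all 6 control libraries for 4 of the 14 genes and above for 2, beside 13.4% and 12.9% of all genes. The 2 were CDK1 and TOP2A, not called, at 0.21 (FDR 0.0359) and 0.17 (FDR 0.0596) against HUWE1-P cells. Between the control lines edgeR called no gene of these 3 further lists. There 1 of 30 further p53 targets, 3 of 25 regulators and 1 of 14 DREAM genes had an unadjusted p under 0.05. Over all genes that share was 5.54%. HUWE1, the edited gene, had a log2 fold change of -0.69 (FDR 1.06e-15) in HUWE1-CS and -0.21 (FDR 0.353) in HUWE1-WT cells.

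**Figure D5:**
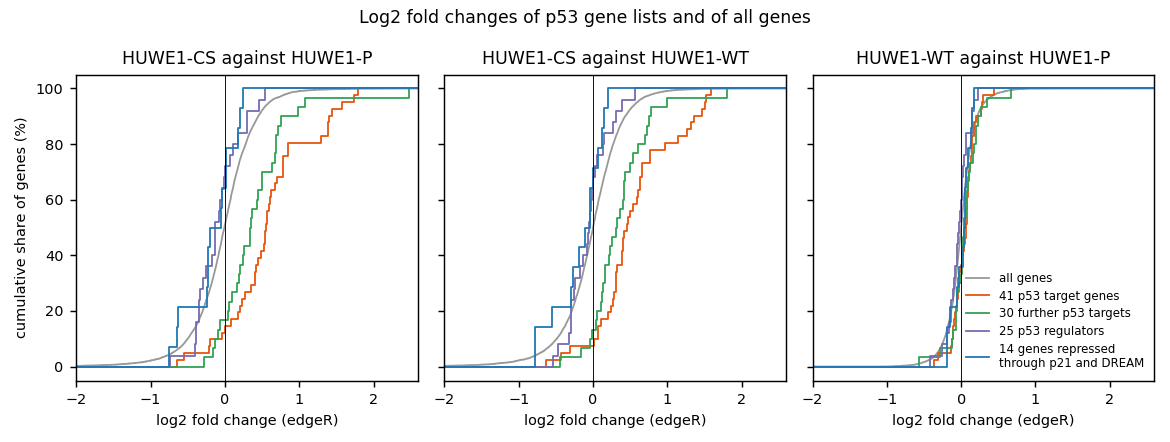
Cumulative share of genes (y axis, percent) by log2 fold change (x axis, edgeR) for the 41 p53 target genes, 30 further p53 targets, 25 p53 regulators, 14 genes repressed through p21 and DREAM, and all genes, in the 3 comparisons; the extremes of all genes lie beyond the x axis. In both comparisons with HUWE1-CS cells the curve of the 41 genes lies to the right of that of all genes (medians 0.55 and 0.46) and that of the further targets between them, and in HUWE1-WT against HUWE1-P cells the curves lie together near 0.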

How the data were processed

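RNA was measured in 9 libraries of HCT116 cells (HUWE1-P, HUWE1-WT and HUWE1-CS, 3 each), prepared with a poly-A kit that is not stated to mark strand and read single-end. Per the labels, bcl2fastq 2.20, STAR 2.5.4 and edgeR 3.26.8 were used with the hg19 build. The authors deposited a table of raw, unnormalized read counts with 11350 genes under Entrez identifiers; the counting tool and its annotation and use of strand are not given in the sources used here. The smallest total of a gene was 41 counts. The authors' tables of edgeR results for the 3 comparisons, with fold changes and p-values, were not used. Genes without a symbol (147, with 0.505% of the counts) were kept.

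Counts were normalized by TMM and tested with edgeR 4.0.16 in R 4.3.3 (glmQLFit and glmQLFTest with legacy = TRUE, the estimator of the authors' edgeR version). All 9 libraries entered the fit, with line as the only term and no replicate block, p-values were adjusted over all 11350 genes, and genes were called at an FDR of at most 0.01. The common dispersion was 0.00228 (biological coefficient of variation 4.77%) and filterByExpr kept all 11350 genes. SE is the log2 fold change divided by the square root of F, and intervals are at 95%. CPM values are TMM-normalized. Library totals lay between 1610984 and 2060349, and intervals cover the spread between these libraries only, which may be partly technical. Replicate pairs differed by more than sampling noise (chi-square per degree of freedom between 1.16 and 1.65), so none was counted as a duplicate.

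The members, gene lists and tests were chosen with earlier results of these data known. All 41 genes are named; of the other p53 lists, genes called in HUWE1-CS or HUWE1-WT against HUWE1-P cells, and MDM4 and HUWE1; some genes counted in those lists are not reported here by name. DAXX, PLK1, CENPA, CDK1, TOP2A, E2F7, the cell type markers and genes that overlap a member were named after their values were seen. Elements were searched with Python 3.11.15 and pysam 0.24.0 on GRCh37 with GENCODE annotation, on which 11114 genes were placed. On simulated data (HUWE1-CS against HUWE1-P, 11350 genes, 200 changed, 3 data sets), 80.2% of changes of 1 and 40.4% of changes of 0.5 on the log2 scale were recovered, 5 of 366 calls were false, and 0 were made in the unchanged comparison.

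Alternatives were DESeq2 1.42.0, limma-voom (limma 3.58.1), RLE size factors, total counts, at least 10 counts in every library, fits restricted to a pair of lines, robust fitting, the newer edgeR estimator, a replicate block, a correction for transcript length and GC content, the block together with that correction, each library left out, an FDR of 0.05 and a log2 fold change of at least 1.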

Additional observations from a re-analysis of the deposited data

How the results depend on the processing

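The rise of the p53 target genes in HUWE1-CS cells was seen under every alternative run. Against HUWE1-P cells 27 of 41 were called, between 26 and 28 without each library and between 24 and 30 under the other alternatives at the same threshold, and against HUWE1-WT cells 24, between 22 and 24 without each library and between 22 and 25 otherwise, while an FDR of at most 0.05 gave 31 and 28; in HUWE1-WT against HUWE1-P cells it was 0 in all 20. At the same threshold the share of all genes called also varied, against HUWE1-P cells from 9.59% (DESeq2) to 17.9% (at least 10 counts in every library). Against HUWE1-WT cells it ran from 8.79% (DESeq2) to 16.3%, and between the control lines it was at most 0.167%. For the counts of 31 and 28 at an FDR of at most 0.05, no share of all genes is given here. DESeq2 called 24 and 22 of the 41 genes in the comparisons with HUWE1-CS cells. The members' median stayed between 0.53 and 0.59, and between 0.43 and 0.54. Of the genes called, 24 of 27 and 21 of 24 passed under all 20 alternatives; DDB2, FAS and PHLDA3 did not against HUWE1-P, nor SFN, FAS and PERP against HUWE1-WT cells. TIGAR, ZMAT3 and FBXO22 passed against HUWE1-P cells after the length and GC correction (FDR 0.000573, 0.000705 and 0.0011), and NINJ1 without HUWE1-P replicate 1 (FDR 0.00648). In HUWE1-WT against HUWE1-P cells the sign changed under some alternative for 16 of 41 genes, none called. Genes beyond all 6 controls numbered 31, and 31, 30 and 30 with RLE size factors, total counts and the correction, which were added after the data were seen, as were the same alternatives for genes of the other lists. Over all genes 12.9% lay above and 13.4% below all 6 controls with TMM, and the shares under these alternatives are not given here.

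With a log2 fold change of at least 1, the p53 target genes called were 8 in each comparison with HUWE1-CS cells, the further targets 2 in each, and the regulators and DREAM genes 0. Of all genes 0.731% rose by that much against HUWE1-P cells, and the share against HUWE1-WT cells is not given here. DESeq2 called 3 regulators, 4 further targets and 1 DREAM gene against HUWE1-WT cells. An FDR of at most 0.05 gave 11 further targets and 6 DREAM genes against HUWE1-WT and 5 DREAM genes against HUWE1-P cells. These counts hold both directions, and no share of all genes at that limit is given here. Against HUWE1-WT cells E2F7, a further target, was lower (log2 fold change -0.45, FDR 0.0242) and TOP2A higher (0.20, FDR 0.0241). Against HUWE1-P cells CDK1 was higher (0.21, FDR 0.0359). DREAM genes called against HUWE1-P cells were 3 with total counts, 4 with the length and GC correction, with or without the replicate block, and between 1 and 2 without each library; against HUWE1-WT cells they were between 1 and 4 without each library, 1 without HUWE1-WT replicate 2. In each of these alternatives at an FDR of at most 0.01, at most 1 DREAM gene was called higher. The cause of the changes in these counts was not tested.

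Values that changed sign were all near 0 and never called. Against HUWE1-P cells, POLH was at 0.11 with block and correction and 0.10 with the correction, and ranged from -0.18 to 0.0601 without each library. TNFRSF10A was at 0.00189 (DESeq2), 0.00183 (limma-voom), 0.00646 (RLE), 0.00121 (count minimum), 0.00504 (lines compared) and 0.00011 (correction) and ranged from -0.0718 to 0.078 without each library, and TP53I11 from -0.037 to 0.18. Against HUWE1-WT cells the ranges without each library were -0.083 to 0.16 for POLH, -0.015 to 0.22 for REV3L, -0.0302 to 0.18 for TNFRSF10A and -0.10 to 0.11 for TP53I11, which was at -0.00768 with total counts.

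Replicate numbers gave at most a weak sign of pairing. Deviations of same-numbered libraries correlated between -0.0195 and 0.0579, and those of differently numbered libraries between -0.0653 and 0.0333. The highest values (0.0579, 0.0484 and 0.0383) were of same-numbered libraries, but not every library correlated best with its own number. With the replicate block, 28, 24 and 0 p53 target genes were called in the 3 comparisons, beside 17.8%, 16.2% and 0.0617% of all genes. With block and correction they were 30, 25 and 0, beside 17.4%, 16.3% and 0.0969%. At this depth, genes near the smallest counts of the list, such as SUSD6 and TP53I3, have intervals about as wide as many of the differences reported.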

Other observations

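Epithelial genes moved in both directions in HUWE1-CS cells. Of the 7 epithelial markers in the table, 4 rose against HUWE1-P cells, with log2 fold changes of 0.53 for CLDN7, a claudin of tight junctions (FDR 2.36e-08), 0.53 for CDH1, which encodes E-cadherin (FDR 0.000113), 0.40 for ELF3, an epithelial transcription factor (FDR 0.00122), and 0.28 for EPCAM (FDR 0.000497). KRT8 and KRT18, the paired keratins of simple epithelia, had log2 fold changes of -0.32 (FDR 6.04e-07) and -0.30 (FDR 8.05e-05). The same 6 genes passed in the same direction against HUWE1-WT cells, and 0 of 7 passed in HUWE1-WT against HUWE1-P cells in edgeR's test, where KRT19 had an unadjusted p under 0.05. Over all genes, 8.46% rose and 8.58% fell against HUWE1-P cells, and 7.42% rose and 8.08% fell against HUWE1-WT cells. Between the control lines 0.0617% were called.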
